A study of Arabidopsis thaliana with 6 samples.

Results

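The genes described here carry nitrogen into the *Arabidopsis* seedling and fix it into amino acids. They are 10 genes, chosen by locus code: the nitrate transporter genes *NRT1.1* (AT1G12110), *NRT2.1* (AT1G08090) and *NRT2.2* (AT1G08100), the transporter partner gene *NRT3.1* (AT5G50200), the nitrate reductase genes *NIA1* (AT1G77760) and *NIA2* (AT1G37130), the nitrite reductase gene *NIR1* (AT2G15620), the plastid glutamine synthetase gene *GLN2* (AT5G35630), and the ammonium transporter genes *AMT1;1* (AT4G13510) and *AMT1;2* (AT1G64780). The array holds 43603 non-control probes and covers 29030 genes with a locus code, and the 10 genes have 14 of these probes. RNA of whole seedlings was hybridized to 6 one-color Agilent arrays, 3 of *hy5* (the insertion line SALK_096651) and 3 of wild type. Both genotypes were of the Col cultivar and were harvested after 3 days of continuous white light on MS medium with no sucrose. *hy5* was represented by a single line, and the sources do not state whether the 3 replicates of a genotype came from separate plant samples. The p-values therefore measure the spread between these arrays, which may be technical.

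Nitrate is the main form in which many plants take up nitrogen. Transporters of the NRT1 and NRT2 families bring it into root cells, nitrate reductase turns it into nitrite in the cytosol, and nitrite reductase turns nitrite into ammonium in the plastid. Ammonium, also taken up directly through AMT transporters, is fixed by glutamine synthetase and passed on to glutamate by glutamate synthase. The reduction steps draw on the products of photosynthesis, and their genes are known to respond to nitrate, light and sugar. MS medium supplies both nitrate and ammonium. HY5 is a bZIP transcription factor that promotes seedling development in light, and the comparison asks how transcript levels differ when it is lost.

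Signals are given as the intensity of a spot divided by the 75th percentile of its array, the scaling that the study's methods state. The percentile itself lay at intensities of 981 to 1057 on *hy5* arrays and 487 to 558 on wild-type arrays, so scaling lowered every log2 difference by 0.93, and all differences are relative to it. Testing required a probe that stood well above background on every array of *hy5*, of wild type or of both, and 21590 genes met this. Differences are log2 *hy5* minus wild type from limma, with p-values adjusted over these 21590 genes. A gene was called when its adjusted p was under 0.05 and its change at least 2-fold. The 3 *hy5* arrays were on one slide and the 3 wild-type arrays on another, each slide with its own scan, so slide, scan and genotype cannot be told apart. *HY5* (AT5G11260) itself had a signal of 0.0217, 0.0283 and 0.0169 on *hy5* arrays, against 1.32, 1.38 and 1.24 on wild-type arrays. Its log2 difference was -5.91 (limma adjusted p = 7.57e-06), and -4.22 with normexp background correction.

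The genes of nitrate reduction and plastid ammonium fixation were lower in *hy5*, while 0 of the tested uptake genes were lower past the threshold. Of the 10 genes, 8 were tested, and these were well above background on all 6 arrays. *NIA1*, *NIA2*, *NIR1* and *GLN2* were lower in *hy5* at an adjusted p under 0.05, and *NRT3.1* was higher. *NRT1.1* and the pair of ammonium transporter genes did not pass that threshold, and *NRT2.1* and *NRT2.2* were too dim to test. The 5 genes past the p threshold are 5 of 8, against 52.8% of all tested genes, so the share itself is near the background. Only *NIA1* also reached 2-fold, which made 1 gene called lower, against 4.84% of all tested genes, and 0 called higher, against 6.55%. On the log2 scale the median of the 8 differences was -0.31, beside -0.0044 over all tested genes. The change was under 2-fold for 7 of the 8 genes, as it was for 88.4% of all tested genes.

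**Figure D1:**
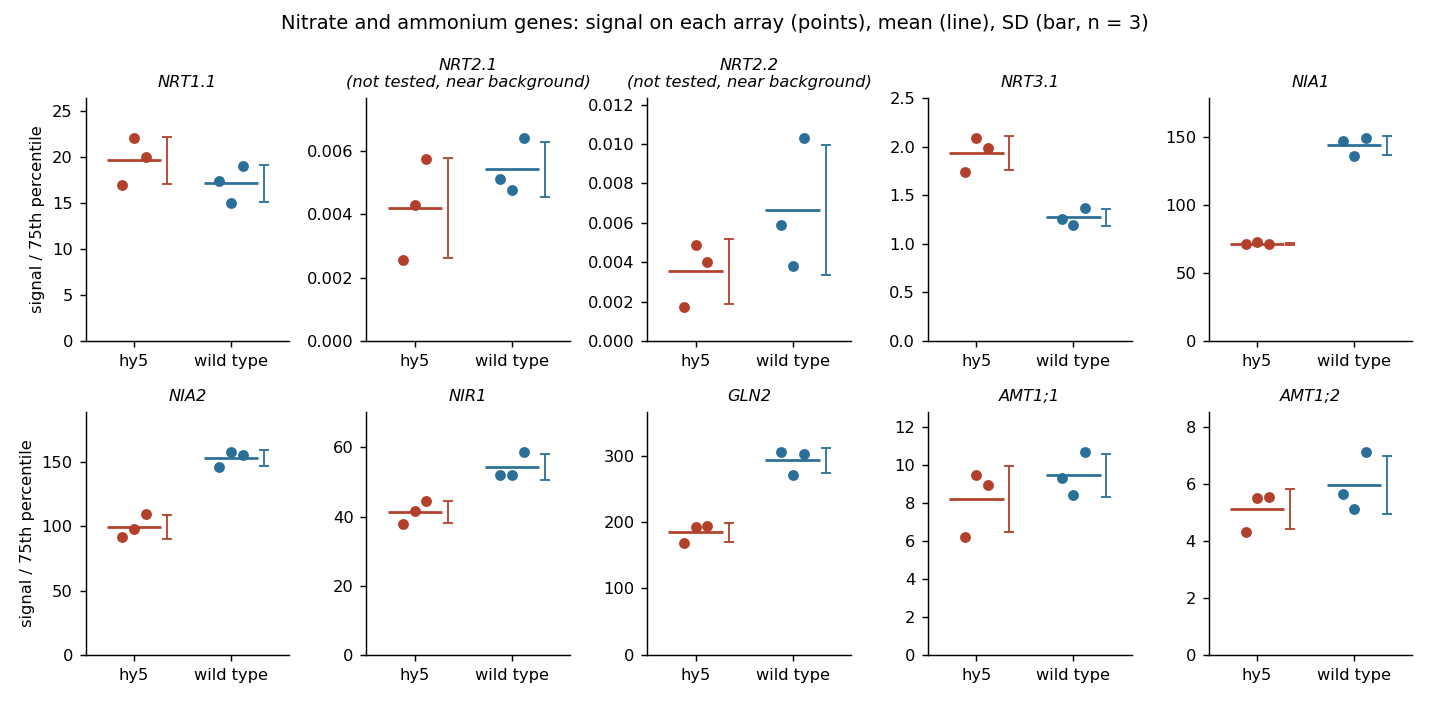
Signal over the 75th percentile (linear axis from 0) on each *hy5* array (red) and each wild-type array (blue) for the 10 genes, with the mean (line) and the SD (bar, n = 3). The genotypes are apart for *NRT3.1*, *NIA1*, *NIA2*, *NIR1* and *GLN2* and overlap for the other genes, and *NRT2.1* and *NRT2.2* lie near background.

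Nitrate reductase catalyzes the first and often limiting step of nitrate assimilation, and *Arabidopsis* has the genes *NIA1* and *NIA2* for it. *NIA1* had a signal of 71.0, 72.4 and 71.0 on *hy5* arrays, against 147, 136 and 149 on wild-type arrays. The mutant arrays lay close together and well below every wild-type array. The mean was 71.4 ± 0.800 in *hy5* and 144 ± 7.03 in wild type (SD, n = 3 each). This is a ratio of 0.498. The log2 difference was -1.01 (95% interval -1.20 to -0.81, standard error 0.0848, limma adjusted p = 0.000113). The change sits at the 2-fold limit, and the call depends on that limit. The log2 difference was -0.96 with normexp background correction, -0.95 with quantile normalization, -0.99 without wild-type replicate 1 and -0.98 without wild-type replicate 3, so that in these settings 0 of the 10 genes were called. The adjusted p of *NIA1* stayed at 0.0257 or lower in every setting tried.

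*NIA2*, which is known to provide most of the nitrate reductase activity of the plant, changed in the same direction. Its signal was 91.5, 97.6 and 109 on *hy5* arrays, against 146, 157 and 155 on wild-type arrays. The groups did not overlap, and the log2 difference was -0.62 (standard error 0.0991, 95% interval -0.85 to -0.39, limma adjusted p = 0.00169). A further 2 probes of *NIA2*, both well above background on all arrays, were also lower in *hy5*, with log2 differences of -0.89 and -0.73 and limma adjusted p over all tested probes of 0.000824 and 0.000487. All 3 probes thus showed the fall, with sizes from -0.62 to -0.89. Within an array, the log2 ratio of *NIA1* to *NIA2* signal was -0.37, -0.43 and -0.62 in *hy5*, against 0.0075, -0.21 and -0.063 in wild type. The ratio was lower on every *hy5* array, by 0.38 on average, with an exact two-sided permutation p of 0.10, the smallest that 3 against 3 arrays allow. It was 1 of 2 such ratios computed, and the adjusted p was 0.10 as well. Between the *NIA1* probe and the *NIA2* probe A_84_P807972 the log2 differences were closer, -1.01 and -0.89, so the gap between the 2 genes depends on the probe.

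*NIR1* encodes the plastid enzyme that reduces nitrite to ammonium with electrons from ferredoxin. Its signal was 37.98, 41.5 and 44.5 on *hy5* arrays, against 52.1, 52.1 and 58.5 on wild-type arrays. The groups did not overlap, but the distance between them was small. This gave a log2 difference of -0.39 (standard error 0.101, 95% interval -0.63 to -0.16, limma adjusted p = 0.0138). Of the 4 genes that were lower it had the smallest difference, and its adjusted p reached 0.0479 in the weakest of the settings tried. With normexp background correction the log2 difference of *NIR1* was -0.31, in a setting where the median over all tested genes was itself -0.20.

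*GLN2* encodes the plastid form of glutamine synthetase, which fixes the ammonium made from nitrite and that released in photorespiration. Its signal was 168, 192 and 193 on *hy5* arrays, against 305, 271 and 303 on wild-type arrays. All *hy5* arrays were below all wild-type arrays. The log2 difference was -0.67 (standard error 0.101, 95% interval -0.90 to -0.43, limma adjusted p = 0.00135). The second probe of the gene had signals of 14.7, 18.2 and 17.8 in *hy5*, against 20.4, 24.3 and 22.2 in wild type. It was also lower, with a log2 difference of -0.40 (limma adjusted p over all tested probes = 0.0261). Under quantile normalization the log2 difference at the brighter probe was -0.32 (limma adjusted p = 0.0150), and the cause of this shift was not tested.

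**Figure D2:**
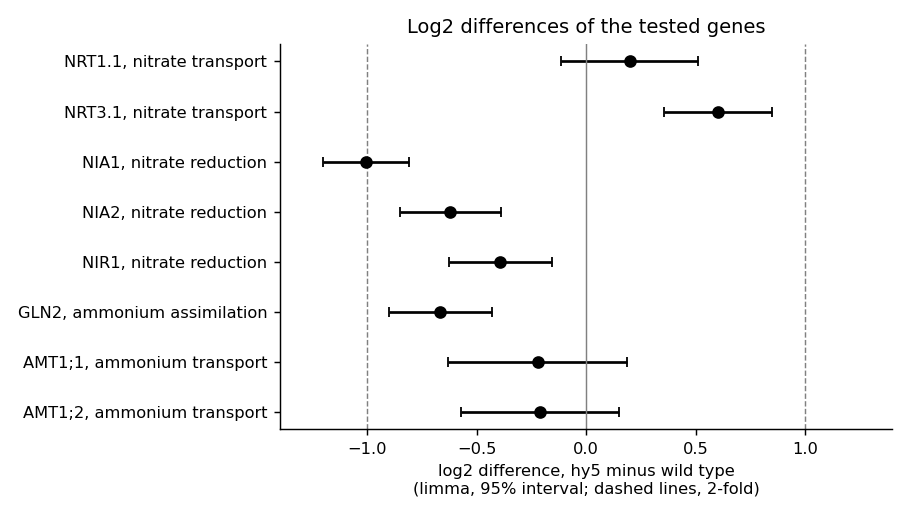
Log2 difference, *hy5* minus wild type, of the 8 tested genes with its 95% interval from limma (horizontal axis), with dashed lines at 2-fold. The intervals of *NIA1*, *NIA2*, *NIR1* and *GLN2* lie below 0, that of *NRT3.1* lies above 0, and those of *NRT1.1* and of the pair of *AMT1* genes include 0.

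*NRT1.1* encodes a transporter that works at both low and high nitrate and that also acts as a nitrate sensor. At its brighter probe the signal was 17.0, 22.1 and 20.0 on *hy5* arrays, against 17.4, 15.0 and 19.0 on wild-type arrays. The groups overlapped. The log2 difference was 0.20 (standard error 0.134, limma adjusted p = 0.244), and its 95% interval ran from -0.11 to 0.51. The second probe had 14.5, 16.6 and 17.1 in *hy5*, against 13.2, 10.4 and 13.6 in wild type. There the groups did not overlap, and the log2 difference of 0.38 had a limma adjusted p over all tested probes of 0.0453. Both probes therefore had a higher mean in *hy5*, and they differ in whether this passed the threshold.

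**Figure D3:**
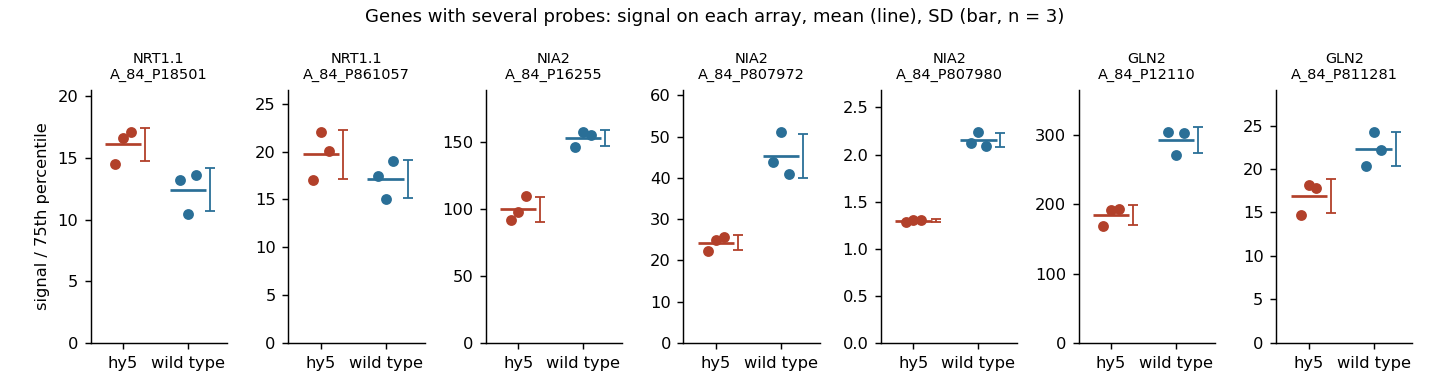
Signal over the 75th percentile (linear axes from 0) on each *hy5* array (red) and each wild-type array (blue) at the 7 probes of *NRT1.1*, *NIA2* and *GLN2*, with the mean (line) and the SD (bar, n = 3). All 3 probes of *NIA2* and both probes of *GLN2* are lower on every *hy5* array, whereas the genotypes overlap at 1 of the 2 probes of *NRT1.1*.

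*NRT2.1* and *NRT2.2*, neighbors on chromosome 1, encode the root transporters that take up nitrate at low supply. Neither gave a usable signal. *NRT2.1* had processed intensities of 2.62, 4.21 and 6.07 on *hy5* arrays and 2.49, 2.65 and 3.57 on wild-type arrays, and it was well above background on 1 of the 6 arrays, *hy5* replicate 3. *NRT2.2* had 1.74, 4.77 and 4.26 on *hy5* arrays and 2.87, 2.11 and 5.73 on wild-type arrays, and was well above background on 0 of them. A difference in either gene was not detectable with these probes, and no fold is given. The other genes of this high-affinity family fell into both classes. *NRT2.4* and *NRT2.5* were well above background on 0 of the 6 arrays, while *NRT2.7*, which is known to load nitrate into the vacuole of seed cells, had 4.77, 5.58 and 5.68 on *hy5* arrays, against 3.88, 3.34 and 3.91 on wild-type arrays (log2 difference 0.53, limma adjusted p = 0.0062). These 3 genes were named after their values were seen.

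*NRT3.1*, also known as *NAR2.1*, encodes a small membrane protein that NRT2 transporters need for uptake. In contrast to those of *NRT2.1* and *NRT2.2* its transcript was well measured. Its signal was 1.74, 2.08 and 1.98 on *hy5* arrays, against 1.26, 1.196 and 1.37 on wild-type arrays. Every *hy5* array was above every wild-type array, and the mean was 1.94 ± 0.177 in *hy5* and 1.27 ± 0.0862 in wild type (SD, n = 3 each). The log2 difference was 0.60 (standard error 0.105, 95% interval 0.36 to 0.85, limma adjusted p = 0.00254). At the probes used for the genes it was the single gene of the 10 that was higher in *hy5* at an adjusted p under 0.05, and its adjusted p was 0.0453 or lower in every setting tried.

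Both ammonium transporters bring ammonium into root cells. *AMT1;1* had a signal of 6.21, 9.46 and 8.95 on *hy5* arrays, against 9.30, 8.41 and 10.67 on wild-type arrays. *AMT1;2* had 4.33, 5.52 and 5.53 on *hy5* arrays, against 5.64, 5.14 and 7.11 on wild-type arrays. In both genes the groups overlapped, and *hy5* replicate 1 was the lowest array. The log2 difference of *AMT1;1* was -0.22 (95% interval -0.63 to 0.19, limma adjusted p = 0.317). That of *AMT1;2* was -0.21 (95% interval -0.57 to 0.15, limma adjusted p = 0.279). Single arrays carry much of these values: without *hy5* replicate 1 the log2 difference of *AMT1;1* was -0.033, and without wild-type replicate 3 that of *AMT1;2* was -0.079. The groups did not overlap for 5 of the 8 tested genes, against 62.5% of all tested genes.

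The further genes of the pathway were taken from lists of transporters, assimilation enzymes, cofactors and regulators. Among 19 other genes of nitrate transport, 18 had a probe and 14 were tested, with 0 called in either direction. At an adjusted p under 0.05, 6 of the 14 were higher in *hy5* and 1 was lower, a share near the 52.8% of all tested genes, and their median log2 difference was 0.16. The largest difference was that of *NRT1.11*, which is known to move nitrate from xylem to phloem in the leaf, with 1.26, 1.099 and 1.23 in *hy5*, against 0.599, 0.603 and 0.603 in wild type (log2 difference 0.99, limma adjusted p = 0.000157). *NRT1.9*, a transporter of root phloem, and *NAXT1*, a nitrate efflux transporter, both named after their values were seen, had 0.92 and 0.86. The remaining higher genes were *NRT2.7*, *NRT1.8* (0.41) and *NRT1.12* (0.43). The lower gene was *NRT1.5*, which loads nitrate into the root xylem, with a log2 difference of -0.28 (limma adjusted p = 0.0427). All 4 other ammonium transporter genes were tested and 0 were called, with 2 higher and 1 lower at an adjusted p under 0.05, too few genes to set against the share over all genes. *AMT1;5* had the largest difference, with 0.0525, 0.0772 and 0.0712 in *hy5*, against 0.0303, 0.0298 and 0.0484 in wild type (log2 difference 0.91, limma adjusted p = 0.0111). *AMT1;3*, a root transporter, was higher as well and *AMT1;4*, a transporter of pollen, was lower, with log2 differences of 0.73 and -0.61 (limma adjusted p = 0.0201 and 0.0134). Those past the threshold in these lists other than *NRT1.11* and *AMT1;5* were named after their values were seen.

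Ammonium assimilation beyond *GLN2* held changes in both directions. Of 14 genes, all tested, 1 was called higher and 2 were called lower, against 6.55% and 4.84% of all tested genes. At an adjusted p under 0.05, 5 were higher and 6 lower, against 52.8% of all tested genes in either direction. One of the 5, *GDH3*, was tested only because of its signal in *hy5*, where it is higher, so that its place in the count is partly set by the filter. *GLU1*, the ferredoxin-dependent glutamate synthase that works beside *GLN2* in the plastid, fell. Its signal was 11.5, 9.39 and 10.9 on *hy5* arrays, against 28.9, 31.4 and 33.1 on wild-type arrays (log2 difference -1.56, standard error 0.11, limma adjusted p = 5.76e-05). Within an array, the log2 ratio of *GLN2* to *GLU1* signal was 3.87, 4.35 and 4.16 in *hy5*, against 3.40, 3.11 and 3.19 in wild type. This ratio was higher on every mutant array, by 0.89 on the log2 scale on average, again with the smallest possible exact permutation p of 0.10. *ASN1*, an asparagine synthetase known to be induced in the dark and repressed by sugar, had 12.9, 14.8 and 14.5 in *hy5*, against 32.3, 26.6 and 28.4 in wild type (log2 difference -1.05, limma adjusted p = 0.000267). *GLT1*, the NADH-dependent glutamate synthase, named after its values were seen, was lower by less than 2-fold (log2 difference -0.87, limma adjusted p = 0.00019). The asparagine synthetase gene *ASN2* and the glutamate dehydrogenase genes *GDH2* and *GDH1*, named in the same way, were also lower, with log2 differences of -0.61, -0.47 and -0.31 (limma adjusted p = 0.00221, 0.00892 and 0.0487).

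Cytosolic glutamine synthetase is encoded by the *GLN1* genes. Of these 5 genes, 3 were higher in *hy5* past the p threshold and 0 were lower. Over all tested genes 52.8% passed it in either direction, and 5 genes are too few to set against that share. *GLN1;5* rose past 2-fold, with 0.129, 0.149 and 0.144 on *hy5* arrays, against 0.0301, 0.0338 and 0.0358 on wild-type arrays (log2 difference 2.08, standard error 0.105, limma adjusted p = 1.84e-05). These signals are dim, so the size of the difference is uncertain. The mean log2 signal of *GLN1;5* in wild type was -4.91. The lowest log2 signals well above background on wild-type arrays were -6.38 to -5.80. *GLN1;3* and *GLN1;4*, both named after their values were seen, were higher by 0.85 and 0.69 on the log2 scale (limma adjusted p = 0.00499 and 0.000469). *GLN1;1* and *GLN1;2*, named in the same way, had 0.24 and -0.19, with limma adjusted p of 0.0633 and 0.292. The other 2 genes of ammonium assimilation that were higher, also named after their values were seen, were the asparagine synthetase gene *ASN3* (0.34, limma adjusted p = 0.0342) and the glutamate dehydrogenase gene *GDH3*, which was well above background on 0 wild-type arrays and is given no fold.

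**Figure D4:**
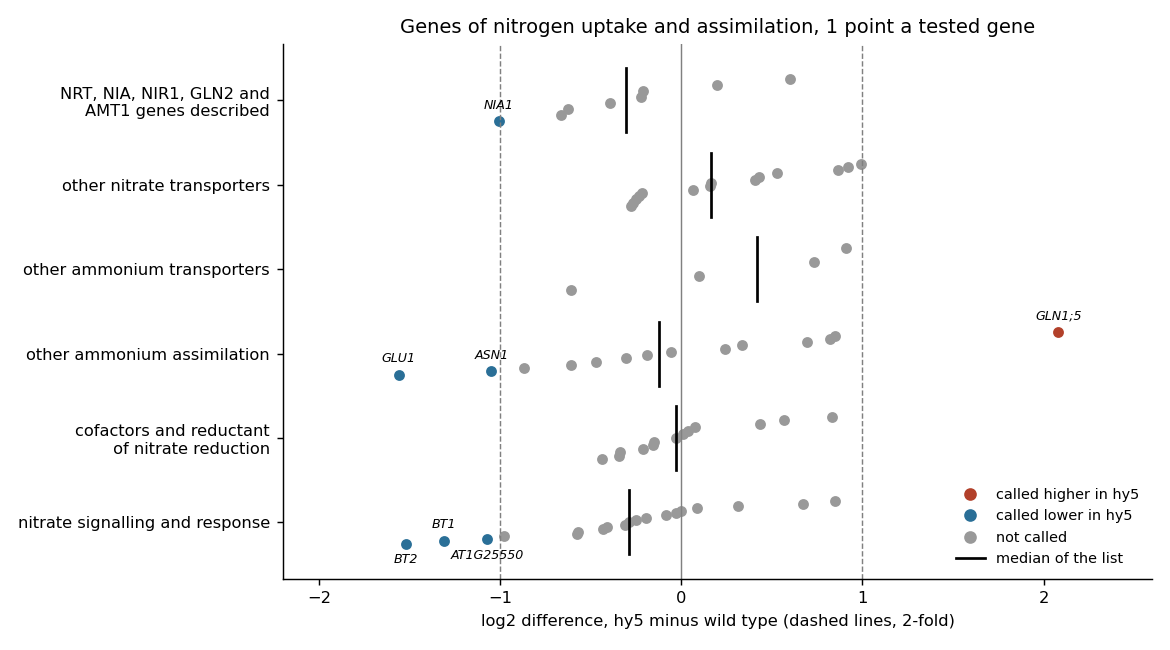
Log2 difference, *hy5* minus wild type, of each tested gene of the 10 and of 5 further lists of nitrogen genes (1 point a gene), with dashed lines at 2-fold and a black line at the median of the list. Genes called higher (red) or lower (blue) are named: *GLN1;5* lies at 2.08, and *GLU1*, *BT2*, *BT1*, AT1G25550, *ASN1* and *NIA1* lie between -1.56 and -1.01.

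Nitrate reductase needs a molybdenum cofactor, and nitrite reductase needs siroheme and reduced ferredoxin. Of 13 genes for these cofactors and for reductant, all tested, 0 were called, 3 were higher and 3 were lower at an adjusted p under 0.05, a share below the 52.8% of all tested genes, and their median log2 difference was -0.029. *RFNR1*, a root-type ferredoxin NADP reductase, had the largest difference, with 2.12, 1.71 and 1.97 in *hy5*, against 1.14, 1.05 and 1.06 in wild type (log2 difference 0.83, limma adjusted p = 0.000672). *RFNR2*, the other root-type reductase, had 0.56 (limma adjusted p = 0.00714). The siroheme genes *UPM1* and *SIRB* were lower, by less than 2-fold, with -0.34 and -0.44 (limma adjusted p = 0.033 and 0.00966). Of the molybdenum cofactor genes, *CNX7* was higher and AT2G43760 lower, with 0.43 and -0.34 (limma adjusted p = 0.0457 and 0.0438). *RFNR2*, *UPM1*, *SIRB*, *CNX7* and AT2G43760 were named after their values were seen.

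Of 20 genes of nitrate signaling and response, 19 were tested, 0 were called higher and 3 were called lower, against 6.55% and 4.84% of all tested genes. At an adjusted p under 0.05, 9 were lower and 3 higher, against 52.8% of all tested genes in either direction, and the median log2 difference was -0.29. The called genes included *BT1* and *BT2*, which encode BTB and TAZ domain proteins. *BT2* had 11.4, 11.7 and 9.36 in *hy5*, against 31.8, 34.1 and 27.2 in wild type (log2 difference -1.52, limma adjusted p = 0.000117). *BT1* had 5.11, 6.22 and 5.33 in *hy5*, against 14.5, 14.0 and 12.8 in wild type (log2 difference -1.31, limma adjusted p = 0.000103). The third was AT1G25550, with 0.949, 0.629 and 0.566 in *hy5*, against 1.43, 1.69 and 1.30 in wild type (log2 difference -1.07, limma adjusted p = 0.00346). The mutant arrays lay below every wild-type array for all 3 genes. *NLP7* and *NLP6*, transcription factors that switch on nitrate-responsive genes, and *LBD38*, a repressor of such genes, had log2 differences of -0.29, -0.43 and -0.57 (limma adjusted p = 0.044, 0.00449 and 0.00209). The remaining lower genes were AT1G68670, *TGA4* and *LBD37*, with -0.98, -0.57 and -0.41 (limma adjusted p = 0.000376, 0.00316 and 0.0384). *LBD39*, of the same family as *LBD38*, had -0.0018 (limma adjusted p = 0.992). The 3 higher genes were *HB1*, a hemoglobin (0.85, limma adjusted p = 0.0147), and the transcription factor genes *HRS1* (0.67, limma adjusted p = 0.00209) and *TCP20* (0.31, limma adjusted p = 0.0383). The genes of this list other than the 3 called were named after their values were seen, and those named all stayed under 2-fold.

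Whole seedlings hold root, green and, soon after germination, residual seed transcripts, and the summed marker signals of all 3 differed between genotypes. Fewer cells of a type and less RNA per cell cannot be told apart in such samples. Of 14 root marker genes, all tested, 8 were higher and 1 lower in *hy5* at an adjusted p under 0.05. Over all tested genes 52.8% passed this threshold in either direction, so the share of root markers is near the background. The summed root marker signal was 37.4 to 47.0 on *hy5* arrays, against 27.2 to 31.6 on wild-type arrays. The root tip markers *PLT1*, *PLT2* and *WOX5* had log2 differences of -0.044 to 0.028. The lower root marker was *SCR*, of the endodermis, with -0.62. These 4 markers were named after their values were seen. Of 9 green tissue markers 8 were lower and 0 higher at that threshold, against the same 52.8% in either direction. Their sum was 1085 to 1175 on *hy5* arrays, against 1452 to 1781 on wild-type arrays. Nearly all of it came from the 5 mesophyll genes, with *RBCS1A* alone at a mean of 363 in *hy5* and 493 in wild type. *TMM*, the brightest of the 4 stomatal lineage genes, had means of 10.8 and 19.3. Both genes were named after their values were seen. The median log2 difference of the green tissue markers was -0.47, beside -0.39 for *NIR1*, -0.62 and -0.67 for *NIA2* and *GLN2* and -1.01 for *NIA1*. That of the root markers was 0.62, beside 0.60 for *NRT3.1*, 0.20 for *NRT1.1* and -0.22 and -0.21 for the ammonium transporters. Of 11 seed maturation markers 9 were called higher, against 6.55% of all tested genes. Among the 9 were *SESA1* and *OLEO2*, also named after their values were seen. Both were tested only because of their signal in *hy5*, where they are higher. The sum of the 11 was 7.50 to 14.1 on *hy5* arrays, against 0.849 to 1.82 on wild-type arrays. None of the marker genes was below background on all 6 arrays. The part of these shifts in the differences of the nitrogen genes was not tested.

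**Figure D5:**
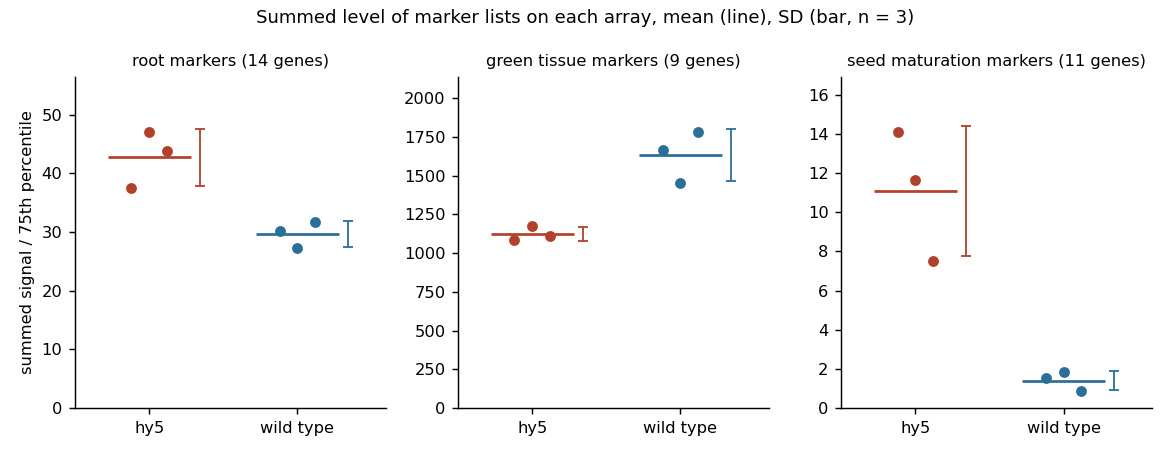
Summed signal over the 75th percentile (linear axes from 0) of 14 root, 9 green tissue and 11 seed maturation marker genes on each *hy5* array (red) and each wild-type array (blue), with the mean (line) and the SD (bar, n = 3). Root and seed maturation sums were higher and green tissue sums lower on every *hy5* array than on any wild-type array.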

How the data were processed

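The authors deposited Agilent Feature Extraction 10.7.3 output for each array, where a spot's value is an intensity after background subtraction, and a table of ratio values, these intensities divided by each array's 75th percentile, with 38464 entries. Processed intensities of non-control spots were scaled to that percentile and log2 transformed, spots of a probe were averaged, and 30 probes with an outlier flag were left out. No spot was saturated (0 spots). A gene was represented by its tested probe with the highest mean. The comparison of genotypes used lmFit and eBayes of limma 3.58.1 under R 4.3.3, two-sided, with Benjamini-Hochberg adjustment. The script was tested on simulated data. Named genes were *HY5*, the 10 genes, every called gene of 5 pathway lists and, for lists with none, the largest difference, and others are marked. The genes and lists were chosen with earlier results of these data known. Names came from the TAIR10.1 RefSeq gene table, which held 114 of 115 listed loci. The array design is older than this assembly, so its coordinates are not printed. Deviations from the genotype means correlated by -0.025, -0.087 and 0.085 between arrays sharing a replicate number, which gives no pairing. Alternatives covered background correction, normalization, filters, probe choice, the deposited table, a replicate block, leaving out each array and the methods' t-test. A slide or scan block could not be fitted, since 0 slides hold both genotypes. The number of arrays limits precision.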

Additional observations from a re-analysis of the deposited data

How the results depend on the processing

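In each of the 16 alternatives, 4 of the 10 genes were lower and 1 was higher at a p under 0.05 (adjusted, except in the methods' t-test at its unadjusted threshold). With the 2-fold limit, the number called lower was 0 with normexp background correction and with quantile normalization, 0 to 1 with each array left out (0 without wild-type replicate 1 or 3), and 1 in the other alternatives, and the number called higher was 0 in all. Of 144 values of *HY5* and the 8 tested genes under alternatives, 4 (all of *NIA1*) lost their call by falling short of 2-fold, 0 changed sign and the other 140 changed neither sign nor call. Over all genes, 1414 were called higher and 1046 lower. Normexp, which moved the median of all genes to -0.20, called 530 higher (41.7% of calls, against 57.5%), and the methods' t-test after adjustment called 868 higher. No filter on dim probes, which admits more genes, gave 3664 lower (27.4% of calls higher). The replicate block gave 1 of the 10 genes called lower and 0 higher, and 1420 genes higher and 1050 lower over all genes. Signal over background limits *NRT2.1* and *NRT2.2*.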

Other observations

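Within a genotype, the levels of the uptake genes mostly ran in the order of the root and green tissue marker sums from array to array, and not in that of the seed maturation sum, which was noticed after the values were seen. The summed root markers were 37.4, 47.0 and 43.8 on *hy5* replicates 1 to 3, against 30.1, 27.2 and 31.6 on wild-type replicates 1 to 3. *NRT1.1*, *NRT3.1* and both *AMT1* genes were each lowest on the array with the lowest root sum in both genotypes (8 of 8 cases), and the full order of the 3 arrays was the same in 7 of 8 cases. For *NIA1*, *NIA2*, *NIR1* and *GLN2* the full order was the same in 2 of 8 cases, both of *NIA1*, and the lowest array in 6 of 8. Some of these orders rest on near ties, so the contrast between the uptake genes and the others is weak. *NIA1* had 70.98 and 70.99 on *hy5* replicates 1 and 3, and *AMT1;2* had 5.522 and 5.533 on *hy5* replicates 2 and 3. *NIR1* had 52.06 and 52.09 on wild-type replicates 1 and 2. The green tissue sums, nearly all from mesophyll genes, were 1085, 1175 and 1108 on *hy5* arrays and 1668, 1452 and 1781 on wild-type arrays. They had the same order of arrays as the root sums, so that the 2 lists cannot be told apart in this. The order of the seed maturation sums was shared in 0 of 8 cases by the uptake genes and in 0 of 8 by the others. These cases are genes read on the same arrays, so they are not independent, and the share over all tested genes was not computed. Among *hy5* arrays, replicate 1 was the lowest for each of these uptake, reduction and assimilation genes. With 3 arrays a genotype these are descriptions, and no cause was tested.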
